A study of Mus musculus with 47 samples.

Results

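The FOXA family consists of the genes Foxa1, Foxa2 and Foxa3, and all 3 were found by their symbols in each of the study's 3 expression tables, which list 38347, 38347 and 37514 genes. RNA-seq covered 47 libraries, made from embryonic stem (ES) cells of the mouse and from their progeny after culture in N2B27 medium with retinoic acid, which favours neural fates of hindbrain and spinal cord, and SAG, an agonist of the Sonic hedgehog (SHH) pathway that favours ventral fates. Foxa2-/- cells, labelled Foxa2ko with the line C57BL/6, had 3 libraries each as undifferentiated cells and on days 1, 2, 3.5, 4.5 and 5.5, and 2 each on days 6.5 and 7.5. Undifferentiated Foxa2-/- replicate 3 is labelled as undifferentiated by title and stage but as neural progenitor cells by source name. The WT cells they were set against, labelled with the line E14.5, had 2 libraries each as undifferentiated cells and on days 1 and 2, and 3 each on days 3.5 to 7.5. Undifferentiated cells were untreated, retinoic acid was given until day 3.5 or an earlier collection, and SAG until collection. A separate arm had 1 Nkx2.2-/- library (line C57BL/6) and 1 WT library on each of days 3.5 and 5.5, with retinoic acid and SAG until day 3.5 in both genotypes. From day 3.5 on, cells positive for prominin, a surface protein of neural progenitors, were isolated before RNA extraction. Line and genotype cannot be told apart here, and nothing states that replicates were grown as separate cultures, so a p-value reflects the spread among these libraries, which may be technical.

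FOXA proteins are forkhead transcription factors that bind DNA through a winged-helix domain and can open compact chromatin, for which they are called pioneer factors. In the embryo Foxa2 is needed for the node, the notochord and the floor plate, the ventral midline of the neural tube. Foxa1 is switched on after Foxa2 in the floor plate and in endoderm, and Foxa3 is best known from endoderm and liver.

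The genes lie on 3 chromosomes (GRCm38, GENCODE M21, all on the minus strand). Foxa1 (ENSMUSG00000035451) spans 57540628 to 57546916 on chromosome 12, Foxa2 (ENSMUSG00000037025) spans 148042877 to 148046969 on chromosome 2, and Foxa3 (ENSMUSG00000040891) spans 19013284 to 19023538 on chromosome 7. The annotated transcripts of Foxa1 and Foxa2 shared a longest run of 38 bases and those of Foxa3 shared at most 20 bases with either. The 250 bases before the RefSeq start sites (GRCm38.p6) were searched on both strands for the forkhead motifs TGTTTAC and TATTTAC and for the GLI motif TGGGTGGTC. For Foxa1 this window lies inside the GENCODE span, and the bases before the span's 5′ end at 57546916 were not searched. Since Foxa1 and Foxa2 were called lower in the mutant at the same 7 of 8 times, their windows are shown 5′ to 3′ on the gene's strand, chr12:57546112-57546361 and chr2:148046970-148047219. Capitals mark the only match, TGTTTAC on the opposite strand, which reads GTAAACA here.

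Foxa1: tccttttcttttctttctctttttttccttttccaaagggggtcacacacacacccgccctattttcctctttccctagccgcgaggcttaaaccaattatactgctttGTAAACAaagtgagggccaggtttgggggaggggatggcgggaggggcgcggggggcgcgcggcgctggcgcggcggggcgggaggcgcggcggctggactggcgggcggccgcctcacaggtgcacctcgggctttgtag
Foxa2: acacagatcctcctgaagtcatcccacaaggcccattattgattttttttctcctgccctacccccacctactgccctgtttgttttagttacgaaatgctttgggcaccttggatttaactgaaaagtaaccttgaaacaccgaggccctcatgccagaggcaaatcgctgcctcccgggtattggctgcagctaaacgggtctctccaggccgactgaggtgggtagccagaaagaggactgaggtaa

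The match in the Foxa1 window ran from base -141 to base -135 relative to the start site. TGTTTAC was present in 3.17% and TATTTAC in 2.73% of 32851 such windows, and 5.76% held either. No forkhead motif was found in the Foxa3 window or in the windows of the other 2 RefSeq start sites of Foxa2, and the GLI motif, present in 0.225% of windows, was in none of the family's windows. The matches describe letters only, and no binding data were used.

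Expression is given in FPKM, that is, fragment numbers divided by transcript length and by library size, so levels of different genes can be set side by side within a library. Depth, estimated from the spacing of low values, ranged between 35300000 and 41600000 fragments in the table that ends on day 2, between 14100000 and 32900000 in the later table and between 10500000 and 12800000 in the Nkx2.2 arm. The correlation across genes between libraries of a group was 0.917 to 0.971, and Foxa2-/- replicates 1 and 3 of day 2 stood apart from replicate 2. On day 7.5 the neural progenitor markers summed to 1271 to 1302 FPKM in Foxa2-/- libraries and 756 to 1024 FPKM in WT libraries, with 1 of 5 higher (Sox1) and 1 lower. Fabp7 alone averaged 992 ± 34.9 FPKM in Foxa2-/- and 461 ± 131 FPKM in WT (limma adjusted p = 0.0534, not called), and the means of the other 4 summed to 295 FPKM in Foxa2-/- and 470.03 FPKM in WT. The lower marker was Prom1, the gene of the sorted protein, at 62.4 ± 13.9 against 233 ± 25.9 FPKM (SD, n = 2 and 3). The pluripotency markers summed to 13.8 to 24.6 FPKM in Foxa2-/- and 10.99 to 13.1 FPKM in WT libraries that day, with Pou5f1 higher (12.96 ± 9.32 and 0.705 ± 0.250 FPKM) and Klf4 lower (3.85 ± 2.55 and 9.998 ± 1.09 FPKM; not called without Foxa2-/- replicate 1, -0.72). Pou5f1 was also called higher on days 4.5 and 6.5. The neuron markers summed to 38.2 to 48.4 FPKM in Foxa2-/- and 86.7 to 138.2 FPKM in WT libraries on day 3.5, to 179 to 258 and 196 to 517.9 FPKM on day 6.5, and to 218 to 362 and 134.3 to 190 FPKM on day 7.5. Their part in the results was not tested.

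Foxa2, the targeted gene, was close to 0 in all 22 Foxa2-/- libraries, among which 7 were at exactly 0 and the highest reached 0.266 FPKM. At most an estimated 9.78 fragments stood behind any of these values. In WT cells Foxa2 was already detected before differentiation, at 0.589 and 0.670 FPKM, and read 3.37 and 3.82 FPKM on day 1 and 41.8 and 25.5 FPKM on day 2. The WT libraries of day 3.5 read 42.5, 37.7 and 57.7 FPKM, those of day 4.5 read 85.6, 62.2 and 46.5, and those of day 5.5 read 100.005, 72.9 and 67.5. On day 6.5 they read 64.1, 77.4 and 81.2 FPKM and on day 7.5 they read 93.3, 69.3 and 75.6 FPKM. No Foxa2-/- library overlapped a WT library of any time: the lowest WT value, 0.589 FPKM in an undifferentiated library, was above the highest mutant value of the course. The small values in the mutant changed by 0.01 on the log2(FPKM + 1) scale up to day 2 (95% interval -0.31 to 0.34) and by 0.02 from day 3.5 to day 7.5 (-0.42 to 0.46), neither called.

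Differences were tested with limma on log2(FPKM + 1), which understates the change of genes near 0, and a gene was called at a Benjamini-Hochberg adjusted p under 0.05 over all genes of a table. For Foxa2 the log2 fold change of Foxa2-/- over WT was -0.70 ± 0.17 (SE) in undifferentiated cells, which was not called (limma adjusted p = 0.159), and -2.16, -5.06, -5.45, -5.81, -6.23, -6.21 and -6.21 from day 1 to day 7.5, all called. In undifferentiated cells the mutant mean was 0.721% of the WT mean, and with a pseudocount of 0.1 in place of 1 the difference was -2.80 and called (limma adjusted p = 0.00732). Between WT times, the step from undifferentiated cells to day 1 (log2 change 1.49, 95% interval 1.10 to 1.89) and that to day 2 (2.88, 2.48 to 3.27) were called, the first of them not in the fit of only the groups compared (limma adjusted p = 0.0759). The later steps were 0.47, 0.32, -0.10 and 0.09 and none was called, although day 7.5 was higher than day 3.5 by 0.79 (limma adjusted p = 0.00179). The 95% interval of the step to day 4.5, 0.07 to 0.86, left out 0, but it did not pass the adjustment over all genes (limma adjusted p = 0.558). The rise from day 3.5 to day 7.5 has a limma adjusted p of 0.0511 with the pseudocount of 0.1.

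**Figure D1:**
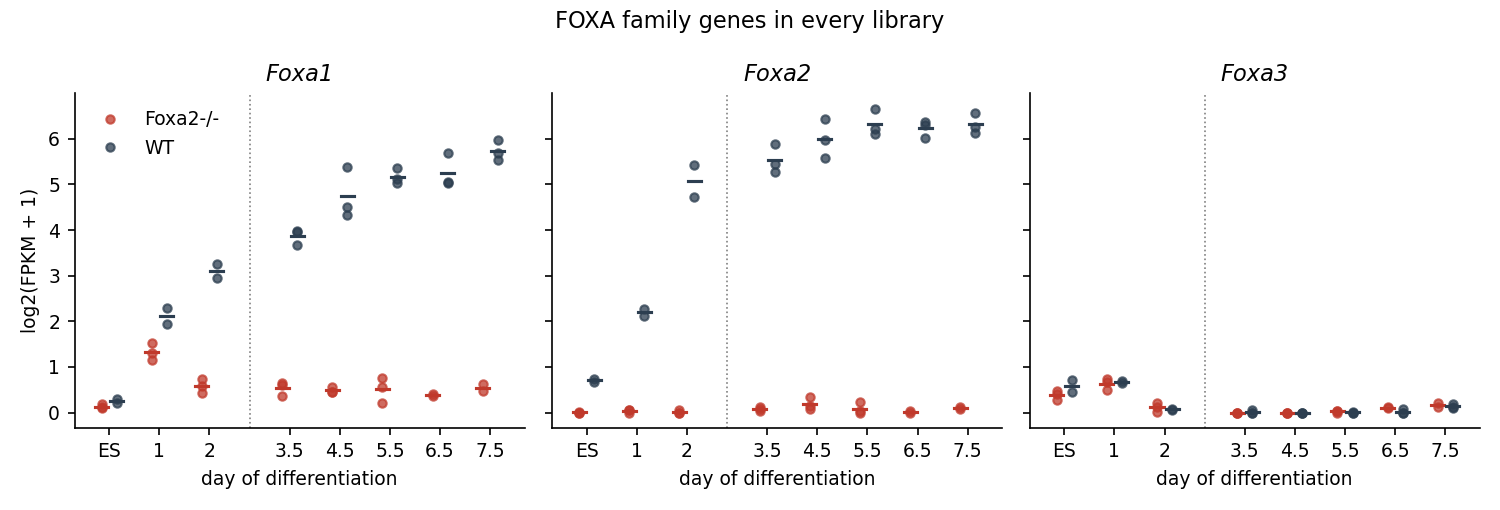
Levels of Foxa1, Foxa2 and Foxa3 as log2(FPKM + 1) in each library of Foxa2-/- (red, left) and WT (dark blue, right) cells by day, with ES for undifferentiated cells; points are libraries, bars are group means and the dotted line separates 2 tables. From day 2 on, WT libraries hold Foxa1 at 6.74 FPKM or more and Foxa2 at 25.5 FPKM or more, while Foxa2-/- libraries stay below 1 FPKM for all 3 genes.

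Foxa1, the closest relative of Foxa2 in floor plate and endoderm, was switched on at first in both genotypes and then maintained in WT cells alone. In undifferentiated Foxa2-/- libraries Foxa1 read 0.0767, 0.0822 and 0.133 FPKM, against 0.157 and 0.223 FPKM in WT. On day 1 it read 1.88, 1.47 and 1.21 FPKM in Foxa2-/- libraries and 3.88 and 2.82 FPKM in WT libraries. On day 2 it read 0.351, 0.498 and 0.657 FPKM in Foxa2-/- libraries, against 8.55 and 6.74 FPKM in WT. The mutant was highest on day 1 and the WT on day 2. In undifferentiated cells the difference between the genotypes was not called, and 8.75 to 24.5 estimated fragments stood behind the values.

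In the mutant, Foxa1 rose from undifferentiated cells to day 1 by 1.19 ± 0.14 on the log2 scale (limma adjusted p = 7.23e-05) and fell by 0.74 ± 0.14 to day 2 (limma adjusted p = 0.00245). In WT cells it rose by 1.86 ± 0.18 to day 1 (limma adjusted p = 4.88e-05) and by 0.99 ± 0.18 to day 2 (limma adjusted p = 0.00235). In fits of only the groups compared neither WT step was called (limma adjusted p = 0.0759 and 0.0889). The change from day 1 to day 2 differed between the genotypes by -1.74 ± 0.23 (limma adjusted p = 0.00441), a contrast added after the values were seen, as were the single steps of the mutant. With quantile normalization the fall in the mutant was -0.34 (limma adjusted p = 0.190) and the difference in the change -1.24 (limma adjusted p = 0.0832), so neither was called. Without replicates 1 and 3 of day 2 both were called, but 1 mutant library of day 2 is then left and its spread is taken from the other groups. From undifferentiated cells to day 2 the net change was 0.45 in the mutant (limma adjusted p = 0.0209) and 2.85 in WT (limma adjusted p = 4.48e-07), and the difference between them was -2.41 ± 0.23 (limma adjusted p = 4.29e-04). The mutant's net change was not called without replicates 1 and 3 of day 2 (limma adjusted p = 0.108, again with 1 library left), nor without undifferentiated replicate 1 (0.0512) or 2 (0.0563) or day 2 replicate 3 (0.0782).

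Changes over time were common in these tables, so the calls are to be read against their shares among all genes. In the mutant, 44.4% of genes tested were called from undifferentiated cells to day 1, 31.2% from day 1 to day 2 and 54.6% over both steps. In WT these shares were 16.8%, 17.2% and 33.9%. Each of these groups had 3 libraries in the mutant and 2 in WT, so the shares of the genotypes cannot be compared in size. A difference between genotypes in a change was rarer: 1.38% of genes were called for day 1 to day 2 and 1.01% for undifferentiated cells to day 2. Foxa1 was called in both of these differences. Those of Foxa2, -2.90 and -4.36, restate its WT course, since the deleted gene stayed near 0 in the mutant.

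**Figure D2:**
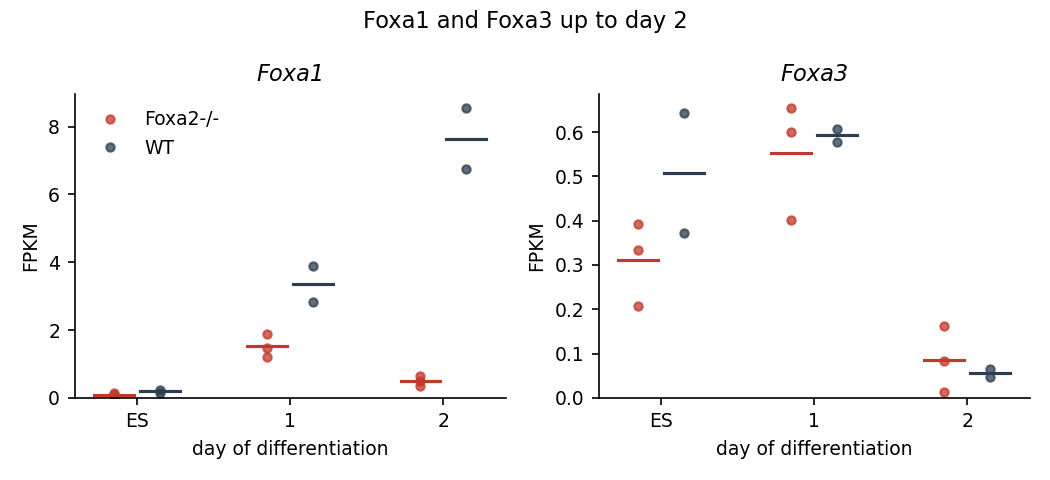
FPKM of Foxa1 and Foxa3 in each library of Foxa2-/- (red, left) and WT (dark blue, right) cells up to day 2, on linear axes that start at 0 and differ between panels; points are libraries and bars are group means. Mean Foxa1 is 1.52 FPKM on day 1 and 0.502 FPKM on day 2 in Foxa2-/- cells, against 3.35 and 7.65 FPKM in WT cells, and Foxa3 is lower on day 2 than on day 1 in both genotypes.

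From day 3.5 on, Foxa1 lay between 0.157 and 0.691 FPKM, with a median of 0.390, in the 13 Foxa2-/- libraries. In the 15 WT libraries it lay between 11.8 and 61.6 FPKM, with a median of 32.4. In order of day, the mutant libraries read 0.286, 0.522 and 0.570 FPKM (day 3.5), 0.468, 0.377 and 0.364 (4.5), 0.157, 0.691 and 0.469 (5.5), 0.326 and 0.287 (6.5), and 0.390 and 0.540 (7.5). The mutant's change from day 3.5 to day 7.5 was 0.01, with a 95% interval of -0.50 to 0.52, and was not called. The WT libraries read 14.7, 11.8 and 14.5 FPKM (day 3.5), 40.9, 19.3 and 21.6 (4.5), 39.9, 31.9 and 33.6 (5.5), 50.6, 32.4 and 31.5 (6.5), and 61.6, 45.2 and 50.2 (7.5). Every WT library of day 7.5 was above every WT library of day 3.5, and the WT change between these days was 1.86 ± 0.22 (limma adjusted p = 1.10e-06). In this comparison 46.8% of all genes were called in WT and 32.1% in the mutant. On day 7.5 the mutant had 2 libraries and WT had 3. The difference between the genotypes in this change was -1.85 ± 0.33 for Foxa1 (limma adjusted p = 0.00116) and -0.76 ± 0.28 for Foxa2, where the mutant again stayed near 0 (limma adjusted p = 0.113, not called), with 7.42% of genes called. With quantile normalization the Foxa2 value was -1.10 and called (limma adjusted p = 0.0233).

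The single late steps of Foxa1 in WT were 0.88 to day 4.5, 0.43 to day 5.5, 0.09 to day 6.5 and 0.47 to day 7.5, and none was called (limma adjusted p = 0.147, 0.323, 0.865 and 0.136). Among all genes, 0.0934%, 1.25%, 2.38% and 13.5% were called at these steps. Replicate 1 was the highest WT library for Foxa1 on each of the 5 days from day 3.5 on, and some steps turned on single libraries: the step to day 4.5 was called without replicate 2 of day 4.5 (1.08, limma adjusted p = 0.0363), that to day 5.5 without replicate 1 of day 4.5 (0.75, limma adjusted p = 0.0319) and that to day 7.5 without replicate 1 of day 6.5 (0.68, limma adjusted p = 0.0482).

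The fold change of Foxa1 in Foxa2-/- over WT grew over the course. It was -0.12 in undifferentiated cells, which was not called (limma adjusted p = 1), -0.79 ± 0.16 on day 1 (limma adjusted p = 0.0307), -2.52 ± 0.16 on day 2 (limma adjusted p = 6.02e-06) and -3.33, -4.25, -4.66, -4.87 and -5.18 from day 3.5 to day 7.5, all called. As a ratio of means without the added 1, mutant Foxa1 was 51.3% of WT in undifferentiated cells, 45.3% on day 1 and 6.56% on day 2, and then 3.36%, 1.48%, 1.25%, 0.804% and 0.889% at the 5 times from day 3.5 to day 7.5. Among all genes tested, 0.298% were called lower in the mutant in undifferentiated cells, 0.68% on day 1 and 3.72% on day 2, and then 2.7%, 5.82%, 9.73%, 11.9% and 12.1% at the 5 later times. Foxa1 was thus among the genes called at 7 of 8 times, while the whole share of lower genes was still under 1% on day 1. The day 1 call was not stable, being lost in 6 of 12 alternatives, with a pseudocount of 0.1 (limma adjusted p = 0.132), with only the groups compared (0.136), with the replicate block (0.0956) and without WT replicate 1 (0.393), Foxa2-/- replicate 2 (0.113) or Foxa2-/- replicate 3 (0.125). In bulk RNA, fewer cells that express Foxa1 and less Foxa1 RNA per cell cannot be told apart.

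**Figure D3:**
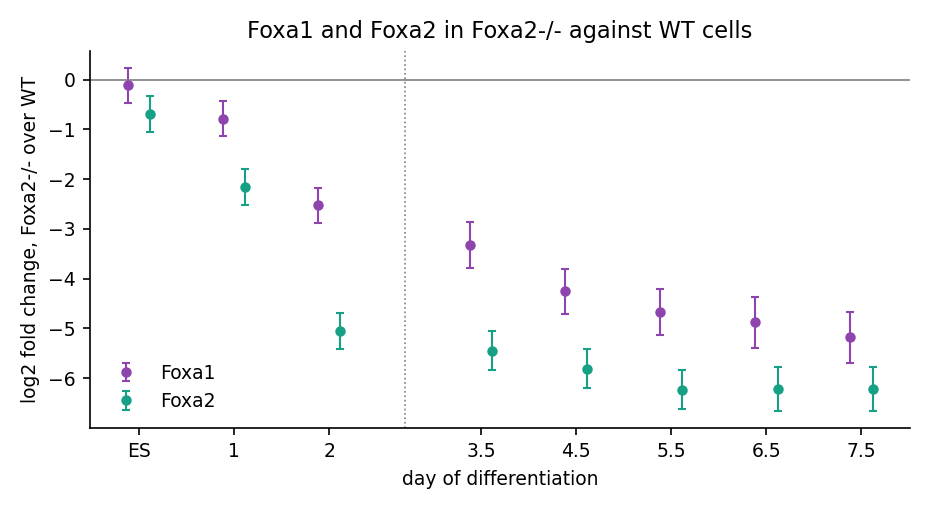
Log2 fold change of Foxa2-/- over WT for Foxa1 (purple) and Foxa2 (green) by day, on the log2(FPKM + 1) scale, with ES for undifferentiated cells; bars are 95% intervals from limma and the dotted line separates 2 tables. Foxa1 goes from -0.12 in undifferentiated cells to -5.18 on day 7.5, and Foxa2 from -0.70 to -6.21.

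Foxa3, the third member, was low in every library of both genotypes. Its highest value among the 47 libraries was 0.655 FPKM, so it did not pass the filter of FPKM 1 in 2 libraries that 2 of the 3 members passed, and it was tested in fits without a filter. In undifferentiated cells it read 0.208, 0.334 and 0.392 FPKM in Foxa2-/- and 0.643 and 0.373 FPKM in WT libraries. On day 1 it read 0.402, 0.601 and 0.655 FPKM in Foxa2-/- and 0.608 and 0.578 FPKM in WT libraries. On day 2 it read 0.0834, 0.0142 and 0.162 FPKM in Foxa2-/- and 0.0641 and 0.0481 FPKM in WT libraries. The genotypes overlapped at each of these times, and in both all libraries of day 2 were below all libraries of day 1.

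The fall of Foxa3 from day 1 to day 2 was -0.51 ± 0.09 in the mutant (limma adjusted p = 0.00181) and -0.59 ± 0.10 in WT (limma adjusted p = 0.00384), where 21.6% and 12.5% of genes were called in fits without a filter. The difference between these falls was 0.08, with a 95% interval of -0.22 to 0.38. From undifferentiated cells to day 2 the changes were -0.27 (limma adjusted p = 0.0304) and -0.51 (limma adjusted p = 0.00516), with 35.3% and 22.8% of genes called. The call in the mutant was lost without undifferentiated replicate 2 (limma adjusted p = 0.0872) or 3 (0.105) or day 2 replicate 1 (0.0737) or 2 (0.0867). Foxa3 is a gene of endoderm, and the 20 endoderm and liver genes summed to 45.7 to 46.6 FPKM on day 1 in Foxa2-/- and 23.5 to 25.9 FPKM in WT, and to 54.0 to 72.3 and 60.4 to 77.1 FPKM on day 2. The mutant sum was higher on day 2 through Cxcr4, a gene also expressed in neural tissue, with a mean of 30.8 FPKM on day 2 and 7.17 FPKM on day 1. Without Cxcr4 the means of the other 19 genes summed to 39.1 FPKM in Foxa2-/- and 23.1 FPKM in WT on day 1, and to 35.1 and 33.3 FPKM on day 2.

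From day 3.5 to day 7.5, Foxa3 was at 0 in 7 of 13 Foxa2-/- and 9 of 15 WT libraries, and 1 fragment was worth an estimated 0.0165 to 0.0386 FPKM. The highest values were 0.160 FPKM in Foxa2-/- and 0.143 FPKM in WT, both on day 7.5, with at most 8.32 and 4.86 estimated fragments. Every library of day 7.5 had a value above 0, at 0.160 and 0.0877 FPKM in Foxa2-/- and 0.143, 0.0753 and 0.0907 FPKM in WT. The rise from day 3.5 was called in the mutant (0.17, limma adjusted p = 1.98e-04) and in WT (0.13, limma adjusted p = 3.68e-04), with 22.4% and 31.7% of genes called without a filter. Between genotypes Foxa3 was called at 1 of 8 times, day 6.5, at 0.0657 and 0.0890 FPKM in Foxa2-/- and 0, 0.0530 and 0 FPKM in WT (log2 difference 0.08, limma adjusted p = 0.0401), where 8.22% of genes were called higher. That call was lost without either Foxa2-/- library (limma adjusted p = 0.0574 and 0.252) and without WT replicate 1 (0.110) or 3 (0.129).

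Foxa1 stood higher relative to Foxa2 on day 7.5 than on days 3.5 to 5.5 of WT differentiation. Foxa1 over Foxa2, each in FPKM, was 0.266 and 0.333 in undifferentiated WT libraries, 1.15 and 0.740 on day 1 and 0.204 and 0.265 on day 2. Day 1 was the only time with a WT library in which Foxa1 exceeded Foxa2, and 20 of 21 WT libraries had more Foxa2. The ratio averaged 0.303 ± 0.0480 on day 3.5 (SD, n = 3) and then 0.417 ± 0.0934, 0.445 ± 0.0499, 0.532 ± 0.223 and 0.659 ± 0.00614 at daily steps up to day 7.5. On day 7.5 the 3 libraries read 0.660, 0.652 and 0.664, and on day 6.5 they read 0.789, 0.418 and 0.388, so day 6.5 spans the values of days 5.5 and 7.5. All libraries of day 7.5 were above all libraries of days 3.5, 4.5 and 5.5. No test was made on the ratio.

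Added over the 3 members, the mutant held 0.414 ± 0.114 FPKM in undifferentiated cells, 2.102 ± 0.188 on day 1 and 0.601 ± 0.197 on day 2 (SD, n = 3). The WT sums were 1.33 ± 0.0867, 7.54 ± 0.457 and 41.4 ± 12.9 FPKM (SD, n = 2). The mutant sum was 31.2% of WT in undifferentiated cells, 27.9% on day 1 and 1.45% on day 2, and lay between 0.351% and 0.872% at all later times. Foxa1 made up 19.7% to 25.7% of the mutant's sum in undifferentiated cells, 63.4% to 82.4% on day 1 and 80.3% to 90.7% on day 2. What FOXA RNA the mutant had was thus mostly Foxa1 RNA on days 1 and 2. From day 3.5 on, when the sum was low, Foxa1 made up 47.0% to 94.7% of it.

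**Figure D4:**
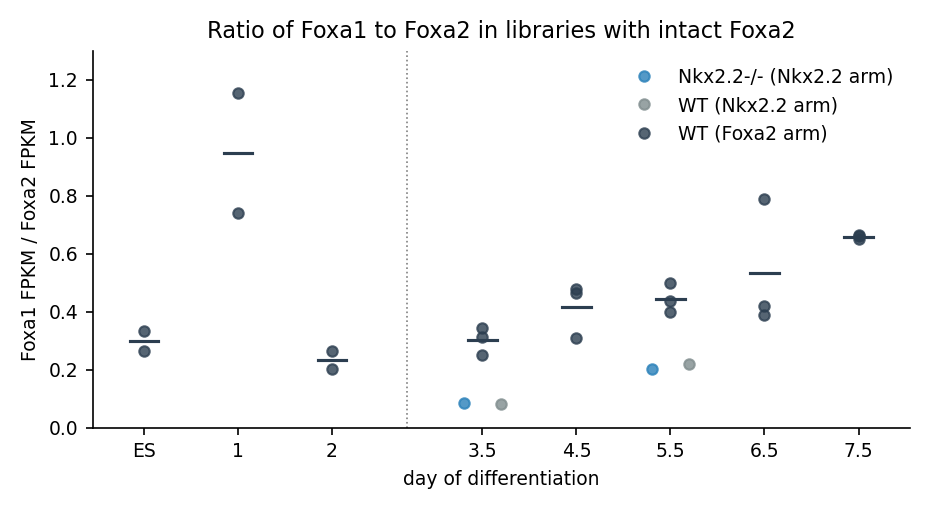
Foxa1 FPKM divided by Foxa2 FPKM by day in Nkx2.2-/- (light blue) and WT (grey) libraries of the Nkx2.2 arm and in WT libraries of the Foxa2 comparison (dark blue), with ES for undifferentiated cells; points are libraries, bars are group means and the dotted line separates 2 tables. The dark blue means go from 0.303 on day 3.5 to 0.659 on day 7.5, and the arm reads 0.0861 and 0.203 in Nkx2.2-/- and 0.0831 and 0.219 in WT cells on days 3.5 and 5.5.

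Loss of Nkx2.2, which marks the progenitors dorsal to the floor plate, was set against WT with 1 library each, and the levels of Foxa1 and Foxa2 were close. On day 3.5, Foxa1 read 13.8 FPKM in the Nkx2.2-/- and 14.2 FPKM in the WT library, and Foxa2 read 160 and 171 FPKM. On day 5.5, Foxa1 read 48.7 FPKM in the Nkx2.2-/- and 56.8 FPKM in the WT library, and Foxa2 read 240 and 259 FPKM. No test was made. The log2 differences of Nkx2.2-/- from WT were -0.04 and -0.22 for Foxa1 and -0.10 and -0.11 for Foxa2, inside the range from -0.74 to 0.61 on day 3.5 and from -0.74 to 0.59 on day 5.5 that held the middle 90% of genes. Of all genes, 4.63% on day 3.5 and 4.48% on day 5.5 differed by 1 or more on that scale, and no FOXA gene did. Foxa3 read 0.0444 FPKM in Nkx2.2-/- and 0 in WT on day 3.5, and 0.0501 and 0.292 FPKM on day 5.5, with at most 5.64 estimated fragments.

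Between days 3.5 and 5.5 of this arm, Foxa1 was higher on day 5.5 by 1.74 in the Nkx2.2-/- and 1.92 in the WT pair, and Foxa2 by 0.58 and 0.59. A difference of 1 or more was found for 5.16% of genes in the Nkx2.2-/- and 6.99% in the WT pair, and Foxa1 was among them in both. Foxa1 over Foxa2 was 0.0861 in Nkx2.2-/- and 0.0831 in WT on day 3.5, and 0.203 and 0.219 on day 5.5, so it was higher on the later day in both, as in the WT libraries of the Foxa2 comparison. SAG ended on day 3.5 in this arm, and the titles of its later libraries read day 5.5 while their stage labels read 3.5 days.

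The genes most like Foxa1 and Foxa2 were ranked by Pearson's r of log2(FPKM + 1) among genes with a group mean of FPKM 5 or more. Over the 28 libraries of days 3.5 to 7.5, which share the split by genotype, Foxa1 was most like Metrnl (r = 0.995), Kitl (0.994), Shh (0.993) and Vtn (0.992), and Foxa2 took rank 10 (0.987). Foxa2 was most like Shh (0.995), Gm10664 (0.987), Foxa1 (0.987), Cxcl12 (0.986) and Hpse (0.985). Shh encodes the signal that floor plate cells secrete. Within the 15 WT libraries, which share the time course, Foxa1 was most like Corin (0.978), Cckar (0.978), Arhgap24 (0.975), 9030622O22Rik (0.974) and Rgs2 (0.973). Foxa1 and Foxa2 had an r of 0.810 there, at which Foxa2 ranked 1088th for Foxa1 and Foxa1 ranked 181st for Foxa2. The genes most like Foxa2 in those WT libraries were Dmrtb1 (0.934), Gm14492 (0.927), RP23-433F5.1 (0.918), B3gntl1 (0.911) and Tmem200a (0.906).

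Up to day 2, Foxa1 was most like Smoc1 (0.967), 8430427H17Rik (0.958), Rev3l (0.958), Nrk (0.956) and Kitl (0.944) over 15 libraries, and Foxa2 most like Shh (0.925), 9030622O22Rik (0.919), Vtn (0.900), Dkk3 (0.891) and Fras1 (0.884). Over the 6 WT libraries of that table alone, the first names were Chml (0.999), Vezf1, Whsc1, Tcf12 and Rev3l for Foxa1, and Dazap2 (0.998), Megf9, Tmtc2, Epb4.1l4b and Dact1 for Foxa2. Kitl, the ligand of the Kit receptor, and Rev3l, a subunit of a DNA polymerase, stood near Foxa1 in 2 of these rankings, and Shh and Vtn, the gene of vitronectin, in more than 1 ranking of the family. These correlations describe shared courses and carry no test.

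Most other forkhead genes were not called beside Foxa1 and Foxa2. Of 41 other forkhead genes listed, 38 were in the tables and 21 were tested up to day 2 and 20 later. None was called in undifferentiated cells, 1 was called higher on day 1, 1 higher and 2 lower on day 2, and 2 lower on day 3.5. On days 4.5, 5.5, 6.5 and 7.5 the counts were 0 higher and 4 lower, 1 and 3, 2 and 4, and 2 and 5. The shares of all genes called higher at the 8 times were 0.079%, 1.2%, 1.6%, 0.677%, 1.69%, 4.53%, 13% and 13.6%. The shares called lower were 0.298%, 0.68%, 3.72%, 2.7%, 5.82%, 9.73%, 11.9% and 12.1%. The median log2 fold change of the tested forkhead genes was -0.34 on day 2, against -0.02 for all genes, and -0.01 on day 7.5, against 0.04.

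A few forkhead genes were lower at several late times. Foxp1, a factor known from motor neuron columns, was at 7.47 ± 1.18 FPKM in Foxa2-/- and 19.8 ± 2.73 FPKM in WT cells on day 3.5 (SD, n = 3 each; log2 fold change -1.30), and at 15.5 ± 6.09 and 62.7 ± 12.6 FPKM on day 7.5 (n = 2 and 3; -1.99). It fell at each of the 5 late times and each call held in all alternatives. Foxj1, the regulator of motile cilia, was at 1.76 ± 0.288 FPKM in Foxa2-/- and 15.2 ± 7.46 FPKM in WT cells on day 5.5 (-2.46), and at 2.74 ± 1.85 and 37.9 ± 7.03 FPKM on day 7.5 (-3.46). Foxj1 was also called on day 4.5, where 9 of 13 alternatives lost the call, 5 of them by leaving out 1 library (WT replicate 1, at -0.92, or 2, or any Foxa2-/- replicate), and on day 6.5, where 1 of 12 did. Foxd2 fell at all 6 times from day 2 on, at low levels, with 0.684 ± 0.104 FPKM in Foxa2-/- and 1.82 ± 0.0241 FPKM in WT cells on day 2 (-0.75) and 0.00776 ± 0.0110 and 1.79 ± 0.261 FPKM on day 7.5 (-1.46); its day 2 call was lost in 3 of 13 alternatives, among them quantile normalization (-0.47).

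Other forkhead genes moved the other way or briefly. Foxb1, expressed in the early neural tube, was at 1.76 ± 0.140 FPKM in Foxa2-/- and 0.396 ± 0.0812 FPKM in WT cells on day 1 (log2 fold change 0.98) and at 12.9 ± 0.685 and 4.56 ± 0.0999 FPKM on day 2 (1.32; n = 3 and 2). It was the forkhead gene called on day 1, at the time when Foxa1 was present in both genotypes, and it was not called in the later table. Its day 2 call was lost in the fit of only the groups compared (limma adjusted p = 0.0985). Foxm1, a regulator of cell division, was at 42.7 ± 1.63 FPKM in Foxa2-/- and 18.5 ± 3.97 FPKM in WT cells on day 6.5 (1.18) and at 35.9 ± 9.42 and 14.9 ± 3.68 FPKM on day 7.5 (1.22), with each call lost in the fit of only the groups compared (limma adjusted p = 0.0782 and 0.0679). Foxn3 on days 5.5 and 7.5, Foxk2 on day 6.5, Foxp2 on days 4.5 and 6.5, Foxo1 on day 2 and Foxp4 on day 7.5 were called but lost the call in at least 1 alternative, and Foxl2 was lower on day 7.5 (-1.08) in all of them.

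**Figure D5:**
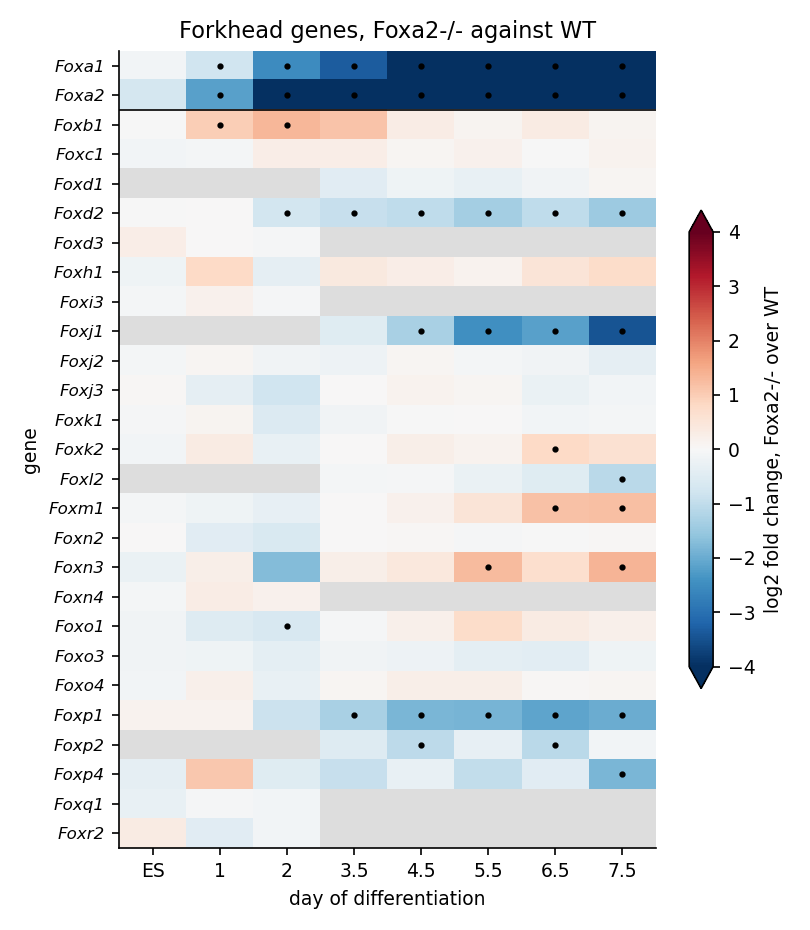
Log2 fold change of Foxa2-/- over WT by day for Foxa1, Foxa2 and the other forkhead genes that passed the filter, with ES for undifferentiated cells; colours are cut at 4 in either direction, grey marks a gene not tested in that table and dots mark calls at an adjusted p under 0.05. Foxa1 and Foxa2 are called at 7 of 8 times, and Foxp1, Foxj1 and Foxd2 are the other forkhead genes with 4 or more calls.

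Genes of the floor plate, where Foxa1 and Foxa2 are both expressed, were not called on day 1 and were mostly lower from day 2 on. Of 13 listed, 0 of 9 tested were called in undifferentiated cells and on day 1, and 8 of 9 were lower on day 2. Of these 8, Shh alone kept its call in all 13 alternatives, while Alcam lost it in 7, Slit3 in 5, Lmx1b in 4, Sulf1 in 3 and Ntn1, Slit1 and Slit2 in 1 each. Leaving out WT replicate 1 lost the calls of Alcam (-1.02), Slit3 (-1.09), Lmx1b (-1.24) and Sulf1 (-1.25), WT replicate 2 those of Slit3 (-1.28) and Lmx1b (-1.10), and Foxa2-/- replicate 3 those of Alcam (-1.41) and Slit3 (-1.13). From day 3.5 to day 7.5 the counts were 10, 10, 11, 11 and 12 of 12, all lower, and 7, 9, 10, 9 and 10 of them held in all alternatives. The shares of all genes called lower were 3.72% on day 2 and 2.7%, 5.82%, 9.73%, 11.9% and 12.1% at these later times. The median fold change of the tested genes was 0.31 on day 1 and -1.59 on day 2; in the later table it was -2.76, -4.23, -5.20, -5.02 and -4.28 in order of day, while the median of all genes stayed between -0.04 and 0.09. On day 2, Shh stood at 0.102 ± 0.0287 FPKM in Foxa2-/- and 11.5 ± 5.00 FPKM in WT cells (log2 fold change -3.45), Slit2, a repellent of axons, at 2.60 ± 1.66 and 17.8 ± 3.92 FPKM (-2.46), and Slit1 at 2.71 ± 0.878 and 19.2 ± 5.45 FPKM (-2.44). In the fit of only the groups compared, Slit1 and Slit2 were not called (limma adjusted p = 0.0970 and 0.158). Of 6 notochord and node genes, 1 was lower at each time from day 2 on, among the 4 tested up to day 2 and the 3 tested later. It was Nog, a BMP antagonist, up to day 6.5, and T, the gene of brachyury, on day 7.5 (0.183 ± 0.259 FPKM in Foxa2-/- and 4.38 ± 0.187 FPKM in WT, -2.20). The Nog call was lost on day 2 in 7 of 13 alternatives, such as without WT replicate 1 (-0.38) or Foxa2-/- replicate 3 (-0.71), and on day 6.5 without Foxa2-/- replicate 2 (-1.02). Among their defining genes, Noto was at 0 in every Foxa2-/- library from day 3.5 on and at 0.147 FPKM or less in WT.

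Genes of the SHH pathway and of its Groucho corepressors were called less widely and in part upwards. At these 8 times, 0.079%, 1.2%, 1.6%, 0.677%, 1.69%, 4.53%, 13% and 13.6% of all genes were called higher in Foxa2-/- cells. Of 8 genes that transduce the SHH signal, 0, 1, 0, 0, 4, 5, 6 and 4 were higher in Foxa2-/- cells at the 8 times and none was lower. Of the 6 on day 6.5, 1 (Gli1) held in all alternatives; among the others, Smo and Gli2 lost the call in 7 of 12, Hhip in 4 and Ptch1 in 1. Leaving out Foxa2-/- replicate 2 lost the calls of Smo (0.23), Gli2 (0.82) and Hhip (0.78), and leaving out WT replicate 2 or 3 lost those of Smo, Gli2 and Hhip. The median fold change of the 8 genes was -0.01 on day 2 and 1.09 on day 5.5, against -0.02 and 0 for all genes. On day 5.5, Ptch1, the SHH receptor and a target of the pathway, was at 132 ± 9.003 FPKM in Foxa2-/- and 40.3 ± 1.52 FPKM in WT cells (log2 fold change 1.69), and Gli1, a transcription factor induced by the pathway, at 7.62 ± 2.78 and 1.497 ± 0.503 FPKM (1.76). Of 6 Groucho genes, Tle4 was at 59.4 ± 5.18 FPKM in Foxa2-/- and 7.03 ± 1.59 FPKM in WT cells on day 7.5 (2.93) and Tle2 at 1.18 ± 0.154 and 15.1 ± 4.09 FPKM (-2.86). Both were called from day 3.5 on, with Tle1 joining Tle4 on days 6.5 and 7.5, and the day 3.5 call of Tle4 was lost in 7 of 13 alternatives, including leaving out any WT replicate or Foxa2-/- replicate 2 or 3 (0.75 to 0.97). The median of the 6 genes was -0.10 on day 7.5, against 0.04 for all genes. From day 3.5 on, 2.7%, 5.82%, 9.73%, 11.9% and 12.1% of all genes were called lower. Of 10 progenitor genes outside the floor plate, 8 were tested at each time and 0, 0, 4, 2, 3, 5, 4 and 4 were higher, with a median of 1.35 on day 7.5. The shares of all genes called higher are those given above with the SHH genes. From day 2 on, 0, 0, 2, 4, 1 and 2 of these calls held in all alternatives. On day 2, Dbx1 and Olig2 lost the call in 7 of 13, Irx3 in 6 and Pax6 in 3, and none of the 4 was called without WT replicate 1 (0.59, 0.67, 0.86 and 0.68). On day 2, Pax6, a homeodomain factor of neural progenitors, was at 91.4 ± 8.91 FPKM in Foxa2-/- and 41.3 ± 21.5 FPKM in WT cells (1.22). It was also not called without Foxa2-/- replicates 1 and 3, which leaves 1 mutant library (limma adjusted p = 0.146), or with the groups compared alone (0.341). Nkx6-2, a homeodomain factor of ventral progenitors, was at 28.3 ± 5.22 FPKM in Foxa2-/- and 1.70 ± 0.741 FPKM in WT cells on day 5.5 (3.46), and Nkx2-2 was at 49.8 ± 10.03 and 6.45 ± 1.28 FPKM on day 7.5 (2.77).

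The 20 endoderm and liver genes, a class in which FOXA factors act elsewhere in the embryo, were mostly not called. Of 9 tested up to day 2, 0, 3 and 1 were higher in Foxa2-/- cells and none was lower, while 0.079%, 1.2% and 1.6% of all genes were called higher. Those called on day 1 included Cxcr4 (7.17 ± 1.504 FPKM in Foxa2-/- and 1.60 ± 0.271 FPKM in WT, log2 fold change 1.64) and Sox7 (6.40 ± 0.178 and 2.73 ± 0.258 FPKM, 0.99). Both calls were lost without WT replicate 1 of day 1 (1.53 and 0.92), and Cxcr4 is also expressed in neural tissue. None of the 13 tested later was called on days 3.5 to 5.5, and 4 were higher and 1 lower on each of days 6.5 and 7.5. On these 2 days, 13% and 13.6% of all genes were called higher and 11.9% and 12.1% lower. The median of the tested genes was 0.51 on day 1 and -0.03 on day 7.5, against 0.09 and 0.04 for all genes. On day 7.5 Afp, a gene of yolk sac and fetal liver, was at 3.598 ± 0.434 FPKM in Foxa2-/- and 0.960 ± 0.207 FPKM in WT cells (1.23). The gene called lower that day was Ttr, at 1.71 ± 0.0640 FPKM in Foxa2-/- and 7.34 ± 3.94 FPKM in WT cells (-1.48). Its call was lost in 2 of 12 alternatives.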

How the data were processed

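RNA of 47 libraries was measured by poly-A selected, stranded RNA-seq, and the authors deposited 3 tables of FPKM values. Per the submitters' processing notes the genome build was GRCm38 (mm10). The same notes name Cufflinks 2.1.1 and HTSeq 0.6.1, TopHat2 2.0.4, CASAVA and bcl2fastq 1.8.3, as well as limma. The tool behind the FPKM values and its annotation are not given in the sources used here. There were 3 columns that matched none of the 47 libraries, and they were not used.

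The tables were fitted separately with limma 3.58.1 (R 4.3.3; data.table, version 1.17.8). A gene was kept if 2 or more libraries reached FPKM 1, which left 16465 genes in the earlier and 17124 in the later table. The model of log2(FPKM + 1) had a mean for every group of the table, a mean-variance trend and two-sided moderated tests, adjusted over all kept genes by Benjamini-Hochberg. Where a setting left 1 library in a group, that library was assumed to vary like the other groups. Foxa3 did not pass the filter and was tested in fits without it. No test crossed tables, since they were normalized separately. In the Nkx2.2 arm, 15141 genes reaching FPKM 1 in any library were described without a test. The spacing of low FPKM values gave the estimates of depth, with an assumed fragment length of 200 bases; between 62.1% and 80.0% of those values lay within 0.1 of a whole fragment, and intervals from counts are not given. Promoters came from RefSeq. On simulated data, 55% and 96% of 100 genes changed by 1 and 3 log2 units were recovered for day 2 (15650 genes), and 59% and 94% for day 7.5 (16396 genes), with 10 false calls each. For the plots, matplotlib 3.10.9, numpy 2.4.6 and pandas 2.3.3 were used under Python 3.11.15.

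The genes named are the FOXA members, the 5 genes most like each kept member and, from each list, at most 3 genes called in each direction; forkhead genes named beyond these were added after their values were seen. Some genes that this rule selects are not reported here. The members and the gene lists were chosen with earlier results of these data known. Foxc2, Foxf1, Foxl1 and Tubb3 were not analysed here. Settings tried instead were no filter, a pseudocount of 0.1, quantile normalization, median-of-ratios scaling, only the groups compared, no trend, a replicate block, each library left out, and day 2 without Foxa2-/- replicates 1 and 3.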

Additional observations from a re-analysis of the deposited data

Results flagged for a closer look

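Foxa1 changed differently over time in Foxa2-/- and WT cells, by a test of the difference itself. The same test passed for Foxa2, but as the deleted gene it stayed near 0 in the mutant, so its values restate its WT course. From undifferentiated cells to day 2 the log2 change of Foxa2-/- minus that of WT was -2.41 for Foxa1 and -4.36 for Foxa2. From day 1 to day 2 it was -1.74 for Foxa1 and -2.90 for Foxa2, a contrast added after the values were seen. From day 3.5 to day 7.5 it was -1.85 for Foxa1. Foxa1 in the mutant was low and changed by 0.01 over these days, against 1.86 in WT, so this value too restates the WT course. All these differences between genotypes are limma contrasts with an adjusted p under 0.05, and Foxa3 was called in none of them. No group had 4 or more libraries, so single libraries were not screened as outliers. Foxa2-/- replicates 1 and 3 of day 2, which stood apart from replicate 2, were left out together in 1 of the settings tried.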

How the results depend on the processing

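No called result reversed its direction. Among FOXA values that were not called, 13 in 6 results had the other sign under an alternative, in steps between late days and in Foxa3 between genotypes on days 1 and 2, and none of the 13 was called. Over all alternatives, Foxa1 kept its side of the threshold in 288 of its values and lost or gained a call in 14 and 3. With a pseudocount of 0.1, Foxa1 on day 1 was -1.10 in Foxa2-/- against WT (no longer called), Foxa2 in undifferentiated cells was -2.80 and became called (limma adjusted p = 0.00732), and the WT rise of Foxa2 from day 3.5 to day 7.5 was 0.80 (0.0511). The same pseudocount moved the untested Foxa3 differences of the Nkx2.2 arm to 0.53 on day 3.5, -1.39 on day 5.5 and 1.97 between the WT days. Quantile normalization gave -1.24 and -0.34 for the Foxa1 difference in change and the mutant's fall from day 1 to day 2 (no longer called) and -1.10 for the Foxa2 difference in change from day 3.5 to day 7.5 (now called). In fits of only the groups compared, calls were lost for Foxa1 on day 1 (-0.79) and at the WT steps to day 1 (1.86) and day 2 (0.99), for Foxa2 at the WT step to day 1 (1.49), and for Foxa3 from undifferentiated cells to day 2 (-0.27 in Foxa2-/-, -0.51 in WT), from day 3.5 to 7.5 in Foxa2-/- (0.17) and on day 6.5 (0.0826). On day 6.5 the Foxa3 call was also lost with median-of-ratios scaling (0.0770) and without the trend (0.0826). Without Foxa2-/- replicates 1 and 3 of day 2, the change to day 2 in the mutant was 0.45 for Foxa1 and -0.37 for Foxa3, neither called. The cause of these changes was not tested.

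Leaving out each library in turn gave, where a call changed, -0.96 to -0.61 for Foxa1 in Foxa2-/- against WT on day 1, 0.37 to 0.52 for Foxa1 in the mutant from undifferentiated cells to day 2, and 0.55 to 1.08, 0.23 to 0.75 and 0.35 to 0.68 for the WT Foxa1 steps to days 4.5, 5.5 and 7.5. For Foxa3 the ranges were 0.0669 to 0.107 on day 6.5 and -0.33 to -0.22 in the mutant to day 2. Same-numbered libraries of a time deviated together with r between -0.243 and 0.360, over 0.1 in 6 of 19 pairs. The undifferentiated pairs read 0.325 and 0.360, and those of day 3.5 read -0.134, -0.0384 and -0.210. Whether same-numbered libraries share a batch or culture cannot be told from these values. With the replicate block, Foxa1 on day 1 was -0.79 (limma adjusted p = 0.0956) and Foxa3 on day 6.5 was 0.0822 (0.0579), and no other FOXA call was lost.

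The numbers of genes called, behind the shares among all genes, were less stable, with 64 of 224 moving by more than 1.5 times. For Foxa2-/- against WT they were 62 in undifferentiated cells (21 to 165 over the alternatives), 309 on day 1 (down to 62, and without a filter 1.87% of genes), 875 on day 2 (32 to 6039), 579 on day 3.5 (341 to 739), 1285 on day 4.5 (580 to 1411), 4264 on day 6.5 (640 to 4493) and 4411 on day 7.5 (2015 to 5182). Quantile normalization turned the 197 higher and 112 lower genes of day 1 into 155 and 198, and median-of-ratios scaling the 2220 and 2044 of day 6.5 into 1692 and 2437. Depth limits the values near 0, which rest on at most 9.78 estimated fragments for Foxa2 in the mutant and at most 8.32 for Foxa3 from day 3.5 on.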
